A study of Mus musculus with 12 samples.

Results

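The extracellular matrix of the left ventricle holds, beside its fibrillar collagens, elastic fibres, proteoglycans and glycoproteins. The 42 genes described here encode these other components, and were taken by name from a list that was drawn up with earlier results of these data known. They fell into 13 elastic fibre genes, 7 small leucine-rich proteoglycans, 9 basement membrane genes and 13 other matrix glycoproteins and matrix-modifying proteins. All 42 were found among the 55401 genes of the deposited count table, each at 1 row, and all 42 were among the 15764 genes that passed the filter on low counts.

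RNA was sequenced from left ventricles of mice that were either wild type or carried the T497A substitution in Prkca, the gene of protein kinase C alpha, and that had either a sham operation or transverse aortic constriction (TAC), in which the aorta is narrowed around a 27-gauge needle so that the ventricle works against a raised pressure. Each of the 4 groups (wild type after sham, wild type after TAC, T497A after sham, T497A after TAC) had 3 libraries. Surgery was at 10 weeks of age and tissue was taken 5 weeks later, at 15 weeks of age. Each sample title carries a mouse heart number of its own, and p-values cover how these libraries vary. The sources used here state neither sex, strain nor zygosity. The labels give the cell type as cardiomyocyte, but describe extraction from cardiac tissue without sorting. Markers of fibroblasts, endothelium and macrophages were present in all 12 libraries, so the values are those of whole tissue, in which more cells of a type and more RNA per cell cannot be told apart.

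Elastic fibres are built from tropoelastin laid down on a scaffold of fibrillin microfibrils, with fibulins and cross-linking enzymes needed for assembly. Small leucine-rich proteoglycans sit on collagen fibrils and regulate their spacing and width, while laminins, nidogens and heparan sulfate proteoglycans form the basement membrane that surrounds each cardiomyocyte and capillary. Pressure overload of the heart is known for expansion of the interstitial matrix by cardiac fibroblasts.

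Library totals ran from 36862004 to 46898344 counts. The 42 genes together took 0.358% ± 0.012 (SD, n = 3) of counts in wild type after sham and 0.697% ± 0.0476 after TAC, against 0.354% ± 0.0302 and 0.454% ± 0.0523 in T497A. Counts from genes of the mitochondrial genome moved the other way, with means of 26.9%, 20.1%, 29.2% and 25.3% of counts in the same 4 groups. The part of that shift in the results was not tested. Leaving these genes out of the fit gave the same counts of members called. That step removes only their own rows and leaves the counts of other genes unchanged, so it cannot test that part. Within groups, 1 library often stood above the other two: the second T497A sham library had the highest level of its group for 33 of the 42 genes, the second T497A TAC library for 31 and the second wild-type sham library for 23. Prkca itself, whose RNA level a single substitution need not change, ran from 38.1 to 62.3 CPM over the 12 libraries and passed no test between groups.

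Levels below are CPM (counts relative to the library's total after scaling by the trimmed mean of M-values), and fold changes are on the log2 scale with their standard errors (SE) from edgeR's quasi-likelihood test, whose p-values were adjusted by Benjamini-Hochberg across the 15764 genes. Levels are listed in the order of replicates 1 to 3, sham first and then TAC. A gene is said to have risen or fallen only at an adjusted p under 0.05.

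To compare genes with one another, CPM was divided by the length of the gene's merged exons. In wild type after sham, decorin (Dcn) had the highest level per length, 86.8 CPM per kilobase, followed by osteoglycin (Ogn) at 64.2, matrix Gla protein (Mgp) at 59.2 and laminin beta 2 (Lamb2) at 48.6. Fibrillin 2 (Fbn2) was the lowest at 0.0931. After TAC in wild type the order at the top was Mgp at 245, biglycan (Bgn) at 158 and Dcn at 135 CPM per kilobase.

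**Figure D1:**
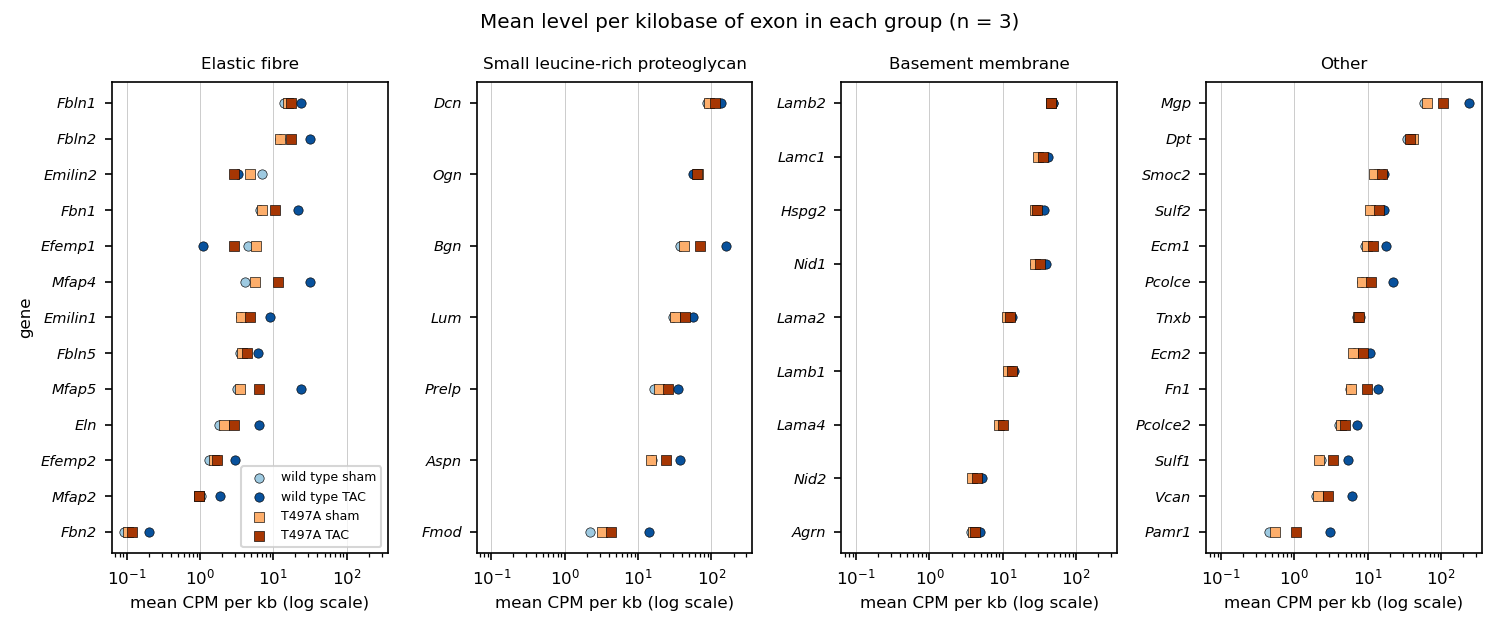
Mean level of each of the 42 genes after sham and after TAC in both genotypes, in CPM per kilobase of exon on a log axis, grouped by class. Dcn led in wild type after sham at 86.8 CPM per kilobase and Mgp led after TAC at 245, while Fbn2 was the lowest in both.

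The first comparison asked how these matrix genes responded to pressure load in wild-type ventricles. Of the 42 genes, 27 rose after TAC and 1, Efemp1, fell, while 14 did not pass. Of all tested genes 12.3% rose and 12.6% fell, 25.0% in all. The median log2 fold change of the 42 was 0.86, beside 0.01 over all tested genes. Medians were 1.16 for the elastic fibre genes, 1.09 for the leucine-rich proteoglycans, 0.98 for the other glycoproteins and 0.29 for the basement membrane genes. In 30 genes every TAC library lay above every sham library, and in 2 every TAC library lay below; 21.5% and 20.7% of all tested genes did so. Since the list was drawn up with such results known, its counts are a description of these genes.

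Among the 13 elastic fibre genes, 8 rose, 1 fell and 4 did not pass the test. The largest rise was in Mfap4, a microfibril-associated glycoprotein that binds elastin and collagen. Sham-operated wild-type ventricles had 4.94, 10.4 and 8.31 CPM and those with TAC 58.7, 61.3 and 59.8, against 9.38, 15 and 7.74 and then 21.5, 28.3 and 16.2 in T497A. The 3 wild-type TAC libraries stood above all other 9, and the T497A TAC libraries lay between them and the sham libraries. The log2 fold change in wild type was 2.93 ± 0.33 (SE), 7.60-fold (adjusted p = 0.000231).

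Mfap5, a second microfibril glycoprotein, moved by almost the same amount. Wild-type levels were 8.98, 14.8 and 10.5 CPM without load and 84, 80.9 and 91.4 with it. In T497A they were 11.9, 14.4 and 11.3, and 20.5, 30.8 and 16.5 with load. Again no other library reached the wild-type TAC libraries, and the change in wild type was 2.90 ± 0.24 (7.47-fold, adjusted p = 3.13e-05). Eln, which encodes tropoelastin, rose in wild type by 1.81 ± 0.37 on the log2 scale (adjusted p = 0.00755). The fibulins Fbln2 (log2 1.33), Efemp2 (1.16), Fbln5 (0.84) and Fbln1 (0.76) also rose, as did Emilin1 (1.29), which links elastin to microfibrils. Fbln1 had the smallest change of the class, with 65.1, 61.9 and 55.4 CPM in sham hearts and 85.4, 115 and 108 under load in wild type, and 67.6, 78.3 and 59.5 and 81.2, 71.5 and 73.2 in T497A. Its wild-type groups did not overlap, whereas its T497A groups did.

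Neither fibrillin passed the test in wild type. Fbn1, which encodes the main microfibril protein, had a log2 fold change of 1.73 ± 0.55 (adjusted p = 0.0532), and 20.1% of its exon bases are shared with another annotated gene, Gm9913. Fbn2 had 1.12 ± 0.48 (adjusted p = 0.109) and the microfibril gene Mfap2 0.88 ± 0.35 (adjusted p = 0.0841). The spread within groups was wide: Fbn1 ran from 48.4 to 122 CPM and Fbn2 from 0.508 to 1.79 CPM over the wild-type sham libraries alone. Even so, the wild-type sham and TAC libraries did not overlap for Fbn1 and Mfap2, whereas those of Fbn2 did.

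Efemp1 and Efemp2 encode fibulin-3 and fibulin-4, closely related short fibulins, and went in opposite directions in wild type. Efemp1 went from 9.88, 7.91 and 9.61 CPM to 2.76, 2.43 and 1.63 with TAC, a fall of 4.01-fold (log2 -2.003 ± 0.23, adjusted p = 4.85e-05). Efemp2, which elastic fibre assembly needs, went from 4.82, 5.18 and 5.2 CPM to 12.5, 10.9 and 10.5, a rise of 2.23-fold (log2 1.16 ± 0.15, adjusted p = 0.000133). Neither gene's wild-type groups overlapped. In T497A the levels were 13.1, 9.15 and 12.8 and then 4.35, 6.52 and 6.93 CPM for Efemp1, and 5.13, 6.21 and 6.53 and then 5.4, 7.8 and 6.07 CPM for Efemp2. The Efemp1 groups of T497A did not overlap, and those of Efemp2 did. As a ratio of levels per length, Efemp2 to Efemp1 ran from 0.263 to 0.352 in wild type after sham and from 2.42 to 3.45 after TAC. In T497A it ran from 0.211 to 0.365 and then from 0.471 to 0.667. This pair was chosen after its values were seen, and the ratio has no test.

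Emilin2, related to Emilin1, was the only other elastic fibre gene with a negative fold change. It was 32, 29.5 and 54.4 CPM in wild type after sham and 15.6, 15.7 and 23 after TAC, and 21.2, 19.8 and 38.5 and then 6.69, 20.8 and 20.5 in T497A. The wild-type groups did not overlap, but the spread was wide and the change did not pass the test (log2 -1.09 ± 0.46, adjusted p = 0.124).

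The start-site sequences of the opposed fibulin pair are shown because the members moved apart. They are the 250 bases before the annotated start, from RefSeq (GRCm38.p6), 5′ to 3′ on the gene's strand: chr11:28852955-28853204 (plus strand) for Efemp1 and chr19:5473696-5473945 (plus strand) for Efemp2, the first of 3 windows listed for that gene. Capitals mark matches, on either strand, to the AP-1 motif TGANTCA or the SMAD motif GTCTAG. Both windows shown hold a SMAD match, at -109 to -104 and at -127 to -122 from the start, and the one of Efemp1 also holds an AP-1 match at -154 to -148. The windows of Efemp2 that are not shown hold no match to either motif.
Efemp1: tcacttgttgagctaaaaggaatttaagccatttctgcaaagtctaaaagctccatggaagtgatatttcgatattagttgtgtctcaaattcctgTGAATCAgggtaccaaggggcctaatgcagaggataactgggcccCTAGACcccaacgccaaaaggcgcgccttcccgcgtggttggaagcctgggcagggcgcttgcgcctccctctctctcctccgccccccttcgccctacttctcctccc
Efemp2: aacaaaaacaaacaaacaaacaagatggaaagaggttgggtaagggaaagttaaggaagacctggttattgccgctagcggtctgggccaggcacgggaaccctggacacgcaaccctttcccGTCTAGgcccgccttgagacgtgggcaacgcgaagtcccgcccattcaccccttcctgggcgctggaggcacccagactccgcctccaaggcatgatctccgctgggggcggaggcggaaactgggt

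Of the 42 genes, 28 had such a window. The SMAD motif was in the windows of 4 of these 28 (14.3%: Aspn, Efemp1, Efemp2 and Fbln1) and in 8.23% of all 27025 genes with windows, and the AP-1 motif in 3 (10.7%: Ecm1, Efemp1 and Tnxb) against 7.82%. The TATA box TATAAA was in 4 (14.3%), as in 14.3% of all genes, and the TEAD motif CATTCC in 4 (14.3%) against 14.4%. The CArG box of SRF was in the window of Lama2 alone, 3.57% against 1.62%. Motif letters can match without being used as a site, and a window without a match says nothing of the factor.

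Of the 7 small leucine-rich proteoglycans, 6 rose in wild type and Ogn did not pass the test. Fibromodulin (Fmod), which binds collagen fibrils, had the largest change. In wild type it went from 5.31, 12.2 and 4.53 CPM to 38.8, 53.8 and 49.2, and the T497A libraries held 10.4, 17 and 4.22 and then 15.3, 15.3 and 11.6. The wild-type TAC libraries were all above the other 9, with a change of 2.68 ± 0.52 (6.40-fold, adjusted p = 0.0059), while in T497A the sham and TAC libraries overlapped.

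Biglycan (Bgn) had the greatest gain in absolute level per length of its class. It was 189, 283 and 219 CPM in wild type after sham and 1010, 920 and 955 after TAC (log2 2.06 ± 0.21, 4.17-fold, adjusted p = 0.00011). The T497A levels were 230, 333 and 214 and then 356, 533 and 409, groups that did not overlap but did not pass the test (log2 0.74 ± 0.21, adjusted p = 0.21). Decorin, a close relative of biglycan, rose 1.56-fold in wild type (log2 0.64 ± 0.08, adjusted p = 0.000132). The ratio of Bgn to Dcn, per length, ran from 0.356 to 0.531 in wild type after sham and from 1.12 to 1.22 after TAC, so that biglycan passed decorin in all 3 of those libraries. In T497A the ratio ran from 0.383 to 0.543 after sham and from 0.525 to 0.788 after TAC, and decorin stayed above biglycan in each library. This ratio was likewise chosen after seeing the values. Lumican (Lum, log2 0.94 ± 0.24, adjusted p = 0.0175) and Prelp (1.09 ± 0.22, adjusted p = 0.00495) also rose; Lum no longer passed without the first wild-type sham library (adjusted p = 0.0609) or without the first wild-type TAC library (adjusted p = 0.063), with adjusted p from 6.17e-05 to 0.063 over all alternatives.

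Asporin (Aspn) and osteoglycin (Ogn) lie near each other on chromosome 13, with Omd between them, and had different fold changes in wild type. Aspn, which binds collagen and transforming growth factor beta, was 33.1, 36.4 and 39.9 CPM in wild type after sham and 75.4, 97.5 and 92.4 after TAC (log2 1.28 ± 0.12, 2.43-fold, adjusted p = 1.32e-05). In T497A it was 35.1, 35 and 36 and then 49.4, 67.1 and 52.5, without overlap, at 0.67 ± 0.12 (adjusted p = 0.0582). Ogn was at 166, 157 and 172 CPM and then 126, 160 and 139 in wild type, with 1 TAC library inside the sham range, and 164, 169 and 165 and then 167, 154 and 172 in T497A. Its log2 fold changes were -0.22 ± 0.08 (adjusted p = 0.0695) and -0.02 ± 0.08.

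The windows of this nearby pair are shown for those different fold changes, at chr13:49544193-49544442 for Aspn and chr13:49607765-49608014 for Ogn, both on the plus strand. Capitals mark matches to the TATA box, SMAD and TEAD motifs given above. Aspn has TATA box matches at -207 and -178 and a SMAD match at -40. Ogn has a pair of overlapping TATA box matches at -229 and -227 and a TEAD match at -86.
Aspn: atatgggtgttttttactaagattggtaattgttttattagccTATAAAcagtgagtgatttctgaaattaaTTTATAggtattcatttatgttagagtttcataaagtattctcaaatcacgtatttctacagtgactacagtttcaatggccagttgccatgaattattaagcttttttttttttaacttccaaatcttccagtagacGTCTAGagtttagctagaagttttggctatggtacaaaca
Ogn: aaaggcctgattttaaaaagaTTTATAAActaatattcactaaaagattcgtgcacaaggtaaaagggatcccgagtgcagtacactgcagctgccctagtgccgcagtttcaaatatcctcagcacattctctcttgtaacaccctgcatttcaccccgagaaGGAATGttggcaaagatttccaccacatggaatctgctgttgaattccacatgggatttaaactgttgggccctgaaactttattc

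The 9 basement membrane genes had small fold changes, from 0.01 to 0.51 in wild type, and 3 rose. Nidogen 1 (Nid1), which bridges laminin and collagen IV, was at 192, 181 and 198 CPM and then 277, 261 and 274 in wild type (log2 0.51 ± 0.08, adjusted p = 0.000643), and 189, 198 and 176 and then 212, 256 and 204 in T497A. The laminin gamma 1 chain gene (Lamc1), shared by most laminins, was 268, 256 and 279 CPM and then 351, 317 and 371 in wild type (log2 0.37 ± 0.09, adjusted p = 0.00675), and 242, 260 and 256 and then 267, 338 and 280 in T497A. For both genes the sham and TAC libraries of each genotype did not overlap. Agrin (Agrn), a heparan sulfate proteoglycan, was 39, 29.8 and 32.6 and then 46.2, 47.2 and 43.4 CPM in wild type (log2 0.43 ± 0.11, adjusted p = 0.0105), and 36.6, 37.8 and 34.8 and then 36.2, 45.5 and 35.8 in T497A. Its T497A groups overlapped, and its wild-type call was lost when both second sham libraries were left out (adjusted p = 0.0543; 0.00015 to 0.0543 over all alternatives).

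The other 6 did not pass. Nid2 (log2 0.35 ± 0.16) and perlecan (Hspg2, 0.29 ± 0.13) were the nearest to the threshold, at adjusted p of 0.145 and 0.137. The laminin chains Lamb1, Lama2, Lamb2 and Lama4 had changes of 0.18, 0.08, 0.01 and 0.01, with SE of 0.09 to 0.13. Lama4, of endothelial basement membranes, had the smallest: 103, 118 and 126 CPM in wild type after sham, 127, 104 and 119 after TAC, and 93.5, 119 and 107 and then 109, 135 and 125 in T497A, with overlap in both genotypes. These values do not show that the levels were equal.

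Of the other 13 glycoproteins and modifying proteins, 10 rose in wild type and none fell. Pamr1, a peptidase-domain protein named for its link to muscle regeneration, had the largest change: 2.59, 3.35 and 2.27 CPM and then 16.2, 21 and 19.4 in wild type, and 2.69, 3.66 and 3.43 and then 5.31, 7.97 and 6.12 in T497A. Sham and TAC libraries were apart in both genotypes, and the wild-type change was 2.78 ± 0.19 (6.86-fold, adjusted p = 3.44e-06). Mgp, an inhibitor of calcification, was 68.5, 78.4 and 63.8 CPM and then 311, 277 and 283 in wild type (log2 2.05 ± 0.12, 4.13-fold, adjusted p = 9.46e-07), and 86.5, 78.5 and 61.6 and then 122, 135 and 120 in T497A. No tested gene had a smaller adjusted p than Mgp for TAC in wild type. Genes can share an adjusted p, so Mgp need not have had the smallest unadjusted p. Versican (Vcan), a large chondroitin sulfate proteoglycan, was 19.7, 39.3 and 27 CPM and then 124, 53.4 and 86.6 in wild type, and 25.8, 43.2 and 23.5 and then 35.7, 49.5 and 39 in T497A. Its wild-type groups did not overlap (log2 1.62 ± 0.38, adjusted p = 0.0143), but the call was lost without the first (adjusted p = 0.0522) or the third of the wild-type sham libraries (0.0541) and in a fit to the 6 wild-type libraries alone (0.0528), with 0.000267 to 0.0541 over all alternatives.

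Genes acting on collagen or on heparan sulfate followed. Pcolce, an enhancer of procollagen cleavage, was 28.3, 34.9 and 33.2 CPM and then 99.3, 78 and 76.2 in wild type (log2 1.40 ± 0.15, adjusted p = 5.31e-05), and 27.6, 36.8 and 33.2 and then 39.9, 51.7 and 37.5 in T497A. Its relative Pcolce2 rose by 0.82 ± 0.12. Sulf1, an extracellular sulfatase that trims heparan sulfate, was 23.4, 27.9 and 27.6 CPM and then 61.3, 56.3 and 63.9 in wild type (log2 1.20 ± 0.09, adjusted p = 4.79e-06), and 25.2, 23 and 24.9 and then 33.9, 39.7 and 39.4 in T497A. Both pairs of groups were apart in Pcolce and in Sulf1. Sulf2, the other sulfatase, rose by 0.53 ± 0.08.

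Fibronectin (Fn1), the glycoprotein on which new matrix is assembled, rose by 1.27 ± 0.14 (2.41-fold, adjusted p = 7.52e-05). Ecm1 was 23.4, 25.8 and 20.2 CPM and then 47.7, 44.1 and 44.9 in wild type (log2 0.98 ± 0.11, adjusted p = 5.74e-05), and 24.2, 26.9 and 24.2 and then 28, 35.4 and 26.2 in T497A, where 1 TAC library lay inside the sham range. Ecm2, a neighbour of Aspn, was 35.1, 37.9 and 37.8 CPM and then 58.8, 65.2 and 61.7 in wild type (log2 0.74 ± 0.07, adjusted p = 1.8e-05), and 36.7, 38.6 and 33.3 and then 49.6, 48.1 and 51.3 in T497A, without overlap in either. Smoc2 (log2 0.41 ± 0.16, adjusted p = 0.0913), dermatopontin (Dpt, 0.14 ± 0.12) and tenascin X (Tnxb) did not pass. Tnxb was at 114, 81.5 and 88.9 CPM and then 89.8, 86.3 and 88.1 in wild type, and 89.8, 93.9 and 90 and then 83.4, 102 and 89.8 in T497A, with overlap in both genotypes and a wild-type change of -0.10 ± 0.11.

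**Figure D2:**
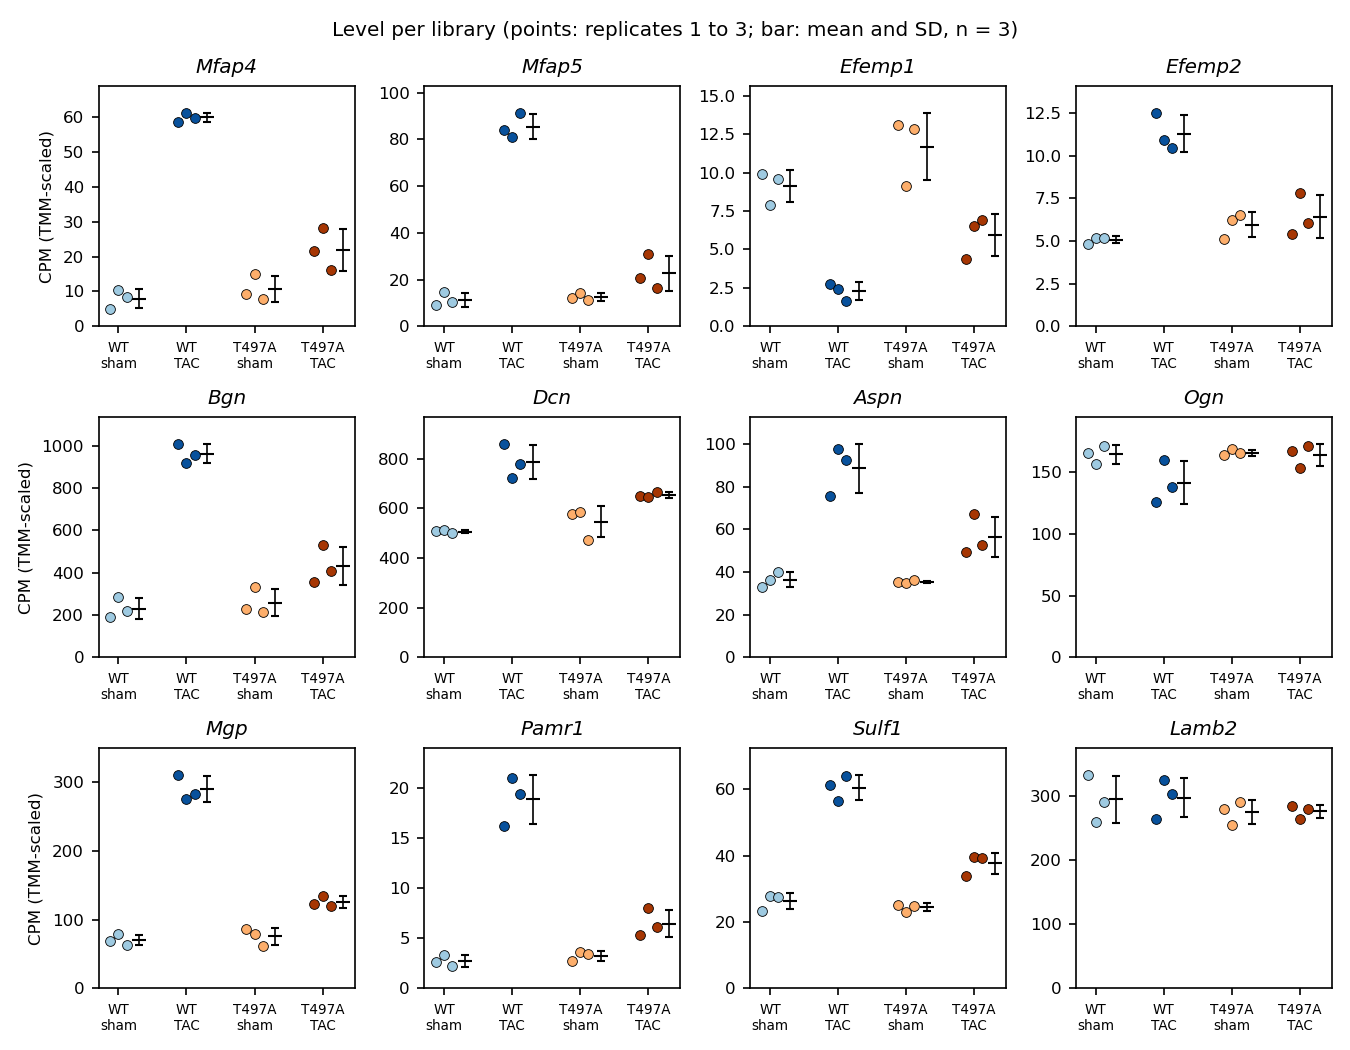
CPM in each of the 12 libraries for genes described in the text, by group, with points for libraries and the mean and SD (n = 3) drawn beside them; each panel starts at 0. For Mfap5, Mgp and Pamr1 the 3 wild-type TAC libraries lie above all others, and for Efemp1 below all others.

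The second comparison was TAC against sham in T497A, which shares no library with the first. Of the 42 genes 3 rose and none fell, where 0.114% of all tested genes were called (0.0634% higher, 0.0507% lower). An unadjusted p under 0.05 was found in 18 of the 42 and in 11.7% of all tested genes. The 3 were Mgp (log2 0.74 ± 0.11, 1.67-fold, adjusted p = 0.0378), Sulf1 (0.63 ± 0.09, 1.54-fold, adjusted p = 0.0318) and Ecm2 (0.46 ± 0.07, 1.37-fold, adjusted p = 0.0446). In 15 genes every TAC library lay above every sham library and in 1, Efemp1, below; 7.71% and 7.68% of all tested genes did so, 15.4% together. The median log2 fold change of the 42 was 0.26, with 0.26 for the elastic fibre genes, 0.43 for the leucine-rich proteoglycans, 0.16 for the basement membrane genes and 0.42 for the others. Aspn (0.67 ± 0.12, adjusted p = 0.0582) and Pamr1 (0.99 ± 0.19, adjusted p = 0.0749) were the nearest of those not called. The largest value, 1.04 ± 0.31 in Mfap4, had an adjusted p of 0.248, and Efemp1 was -0.98 ± 0.21 (adjusted p = 0.105).

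The count of 3 depended on the fit and on single libraries. It became 0 with limma-voom and in a fit to the 6 T497A libraries alone, and 10 with DESeq2. It was 6 without the first T497A TAC library, 4 without the second wild-type TAC library, 1 without the first wild-type sham or the first T497A sham library, and 0 without replicate 3 of wild-type sham, replicate 1 or 3 of wild-type TAC, replicate 2 or 3 of T497A sham, or replicate 2 or 3 of T497A TAC.

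All 27 genes that rose in wild type had a positive fold change in T497A too, and in all 27 it was smaller. The T497A log2 change was a median of 35.5% of the wild-type one, from 9.31% in Efemp2 to 77.6% in Sulf2. These 27 were picked for their change in wild type, which favours a smaller value in the other genotype. Over all 1943 genes that rose in wild type, 1691 had the same sign in T497A, 1916 were smaller and the median was 31.3%. By class the median share was 30.0% for 8 elastic fibre genes, 38.6% for 6 leucine-rich proteoglycans and 35.8% for 10 others. For the basement membrane genes it was 50.6%, but from only 3 genes, which ran from 24.7% to 60.1%.

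**Figure D3:**
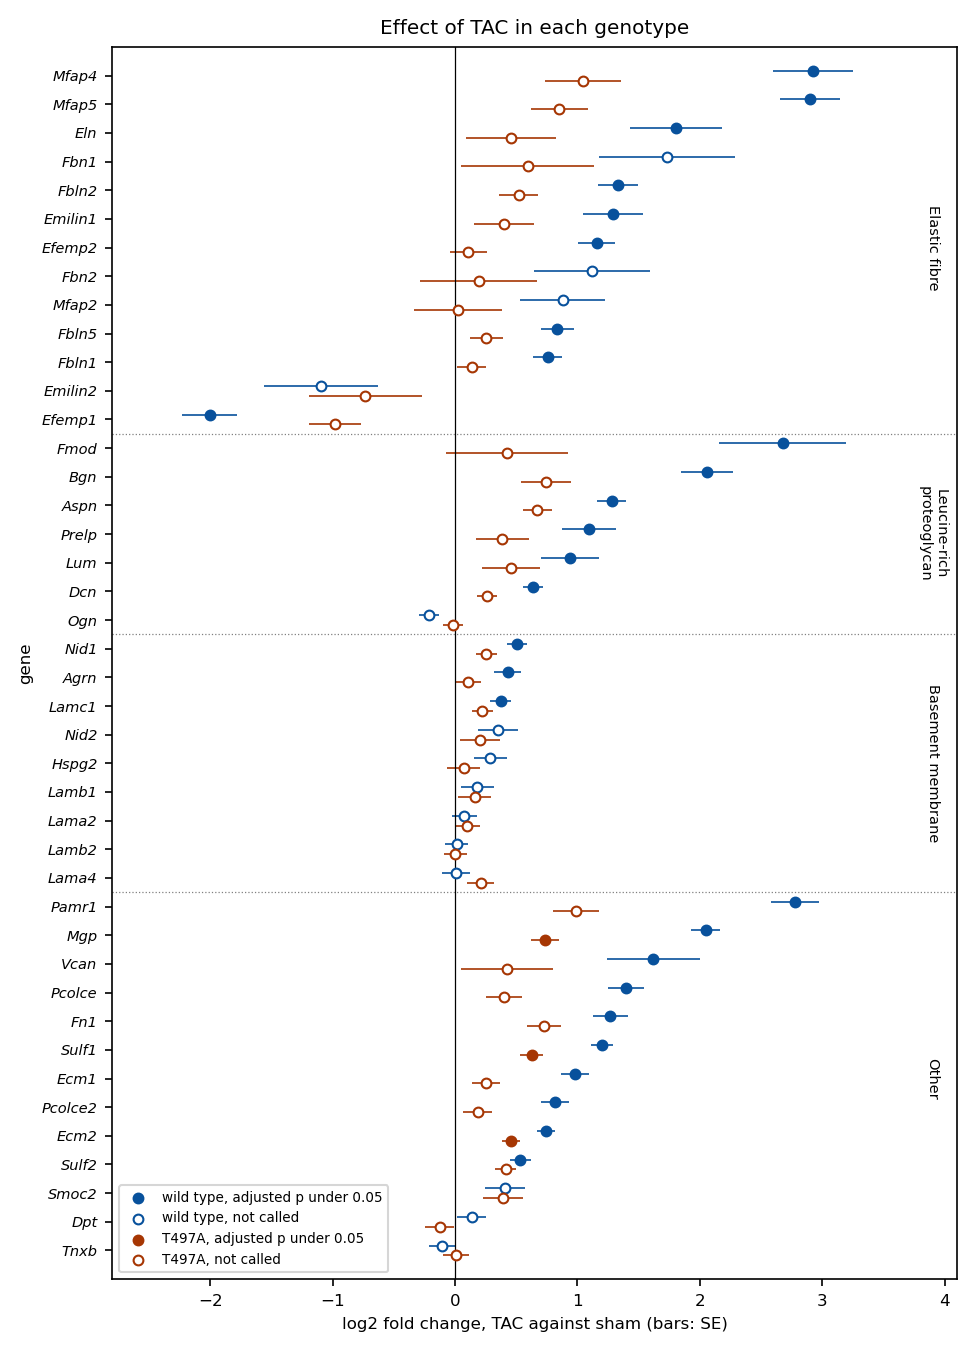
Log2 fold change of TAC against sham for each of the 42 genes in wild type and in T497A, with bars of 1 SE; filled points have an adjusted p under 0.05. Most wild-type points lie to the right of their T497A points, with Mfap4 at 2.93 and 1.04. The basement membrane genes have small changes, from 0.01 to 0.51 in wild type and from 0.002 to 0.26 in T497A.

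The interaction tests the difference between the genotypes' responses itself, as the T497A log2 change less the wild-type one. For 7 of the 42 genes the effect was lower in T497A and for none higher; 0.679% of all tested genes were called lower, and 1.57% in either direction. An unadjusted p under 0.05 was found in 22 of the 42 and in 16.8% of all tested genes. The largest of the 7 differences was in the microfibril gene Mfap5, at -2.05 ± 0.33 (adjusted p = 0.0213), followed by Pamr1 at -1.79 ± 0.27 (adjusted p = 0.00948) and Mgp at -1.31 ± 0.16 (adjusted p = 0.00467). No tested gene had a smaller adjusted p than Mgp here either, with the same limit on its unadjusted p. Efemp2 (-1.05 ± 0.21, adjusted p = 0.0319), Pcolce (-0.99 ± 0.21, 0.0407), Ecm1 (-0.73 ± 0.16, 0.0431) and Sulf1 (-0.58 ± 0.13, 0.0434) were the others. Of these 7 genes, 2 belong to the elastic fibre class and 5 to the other glycoproteins.

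No leucine-rich proteoglycan and no basement membrane gene passed. Only 1.57% of all tested genes were called, so nothing about these classes is read from that. An unadjusted p under 0.05 was found in 5 of the 7 leucine-rich proteoglycans and 0 of the 9 basement membrane genes, beside 16.8% of all tested genes. Class medians of the interaction were -0.89 for the elastic fibre genes, -0.61 for the leucine-rich proteoglycans, -0.58 for the others and -0.15 for the basement membrane genes. Bgn (-1.32 ± 0.29, adjusted p = 0.0573), Pcolce2 (-0.63 ± 0.16, 0.0706) and Mfap4 (-1.88 ± 0.44, 0.0709) lay just outside the threshold, and Fmod had the most negative value, -2.25 ± 0.71, with an adjusted p of 0.157. Mgp and Pamr1 were called under every alternative tried. The count of 7 became 15 with DESeq2 and 13 without the filter on low counts. It was 12 without the second T497A TAC library, 8 without the second wild-type sham or TAC library, 5 without the first T497A sham library, 4 without the first wild-type TAC library, 3 without replicate 1 of wild-type sham or replicate 3 of T497A sham or of T497A TAC, and 2 without replicate 3 of wild-type sham or of wild-type TAC, replicate 2 of T497A sham or replicate 1 of T497A TAC.

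Genotypes were also compared directly. After sham, none of the 42 genes was called by edgeR, none had an unadjusted p under 0.05 and none had groups without overlap, beside 0.0254%, 3.03% and 8.21% of all tested genes (without overlap, 4.23% higher and 3.98% lower); DESeq2 and limma-voom called none either. The median log2 difference was 0.07, from -0.54 in Emilin2 to 0.50 in Fmod. After TAC, 17 were lower in T497A than in wild type and 1, Efemp1, was higher (1.38 ± 0.23, adjusted p = 0.0033); 4.06% of all tested genes were lower and 4.64% higher, 8.70% together. The 17 were 7 elastic fibre genes, the proteoglycans Bgn and Aspn, and 8 others, with Mfap5 (-1.92 ± 0.23), Pamr1 (-1.54 ± 0.18) and Mfap4 (-1.45 ± 0.31) the lowest. No basement membrane gene passed, but with 8.70% of all tested genes called, nothing about that class is read from this. In 25 genes every T497A TAC library lay below every wild-type TAC library and in 1 above (13.6% and 14.4% of all tested genes), and 28 had an unadjusted p under 0.05 (24.0% of all). Mgp again had the smallest adjusted p of the 42 (-1.21 ± 0.11, adjusted p = 0.000258). The count of 18 became 11 without the third wild-type TAC library and 11 without the first T497A TAC library, and 11 genes were called under every alternative. This comparison uses the same TAC libraries as the comparisons above and is not separate evidence.

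**Figure D4:**
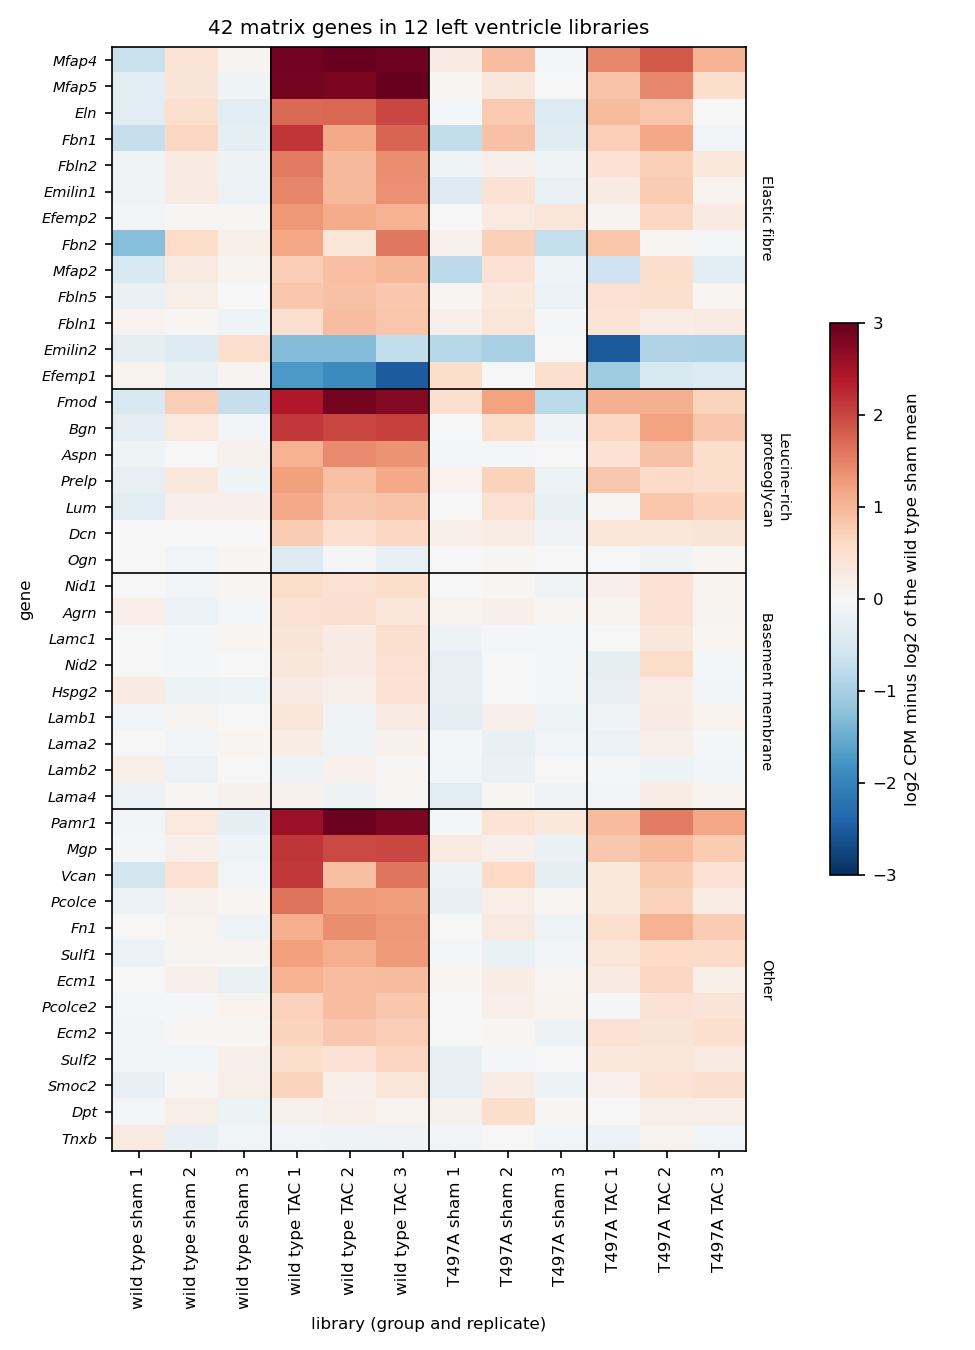
Level of each of the 42 genes in the 12 libraries, as log2 CPM minus the log2 of the gene's wild-type sham mean, with colours limited to -3 to 3; columns are libraries by group, rows are genes by class. The wild-type TAC columns are the most coloured, the basement membrane rows are pale, and Efemp1 and Emilin2 run opposite to most.

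Partner genes that process, bind or anchor these proteins were read from lists in the same fit, and their counts stand beside the 12.3% of all tested genes that rose and the 12.6% that fell in wild type. Of 18 tested elastic fibre partners, 12 rose and 1 fell in wild type (median log2 fold change 0.94). The latent TGF-beta binding protein gene Ltbp2 rose by 4.02 ± 0.37 and the fibrillin-binding Adamtsl2 by 2.89 ± 0.34, while Ltbp1 fell by 0.52 on the log2 scale. Lox, the main elastin and collagen cross-linking enzyme, was lower in its response in T497A (interaction -1.72 ± 0.30, adjusted p = 0.0213), as were Loxl3 (-1.39 ± 0.23, adjusted p = 0.0158) and Ltbp3 (-0.76 ± 0.14, adjusted p = 0.0213). Lox itself had wild-type means of 5.56 CPM after sham and 35.1 after TAC, against 5.13 and 9.82 in T497A.

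Of 6 tested other leucine-rich proteoglycans 2 rose in wild type, Omd by 1.27 and Tsku by 1.13. Of 21 other basement membrane genes 9 rose and 1 fell, led by Frem1 (3.33) and Col4a3 (1.67), with Lamb3 at -0.95. Of 20 matrix receptors 7 rose and 1 fell: Itga11, a collagen receptor chain, rose by 1.46, Itga9 by 1.10, and Itga8 had -0.66. The fibronectin receptor chain Itga5 had a lower response in T497A (interaction -0.78 ± 0.13, adjusted p = 0.0183). Of 8 cell-surface heparan sulfate proteoglycans 4 rose (Sdc1 by 0.67 and Sdc3 by 0.57 the most). Of 28 genes of glycosaminoglycan synthesis 6 rose and none fell (Chpf by 1.02 and Xylt1 by 0.90 the most). That share lies below the 25.0% of all tested genes called either way and above the 12.3% that rose. No gene of these 6 lists was called for TAC in T497A, where only 0.114% of all tested genes were called, so nothing about these lists is read from that. Their medians there ran from 0.08 to 0.39.

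Some markers of other cell types moved beside the matrix genes, and their part in the results was not tested. Their counts stand beside the 12.3% of all tested genes that rose and the 12.6% that fell in wild type. In lists this short, a few calls or none are not read as a result. The 13 fibroblast markers summed to between 1617 and 1703 CPM in wild type after sham and between 2972 and 3335 after TAC, against 1626 to 1963 and 1939 to 2431 in T497A; 6 rose and 1 fell in wild type. Collagen genes carried most of that wild-type rise: Col3a1 had means of 230 CPM after sham and 815 after TAC, Col1a2 161 and 547, and Col1a1 106 and 447. The gene that fell was Scara5, from 23.5 to 7.70 CPM. The 2 defining markers did not pass in wild type: Pdgfra had 0.35 ± 0.18 (adjusted p = 0.18) and Tcf21 0.27 ± 0.23 (adjusted p = 0.433). The 8 activated fibroblast markers summed to between 173 and 192 CPM, then between 997 and 1225, against 187 to 271 and 277 to 503 in T497A. Of these 6 rose in wild type, with Postn at 3.504 ± 0.35 and Cilp at 4.45 ± 0.59. Fap (0.42 ± 0.23, adjusted p = 0.216) and Acta2 (-0.32 ± 0.23, adjusted p = 0.359) did not pass. Acta2, which is also on the smooth muscle list, made up 183 CPM of the 271 in the first T497A sham library. The second T497A TAC library held the value of 503, and was also the one in which 31 of the 42 matrix genes were highest of its group.

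Of 10 macrophage markers 8 rose in wild type, with sums of 202 to 237 CPM after sham and 324 to 410 after TAC, against 226 to 276 and 262 to 342 in T497A; the defining markers Csf1r and Adgre1 were among the 8. Of 10 endothelial markers none was called, where 25.0% of all tested genes were called in wild type. Their sums were 1255 to 1357 CPM and then 1260 to 1389 in wild type, and 1219 to 1546 and then 1250 to 1471 in T497A. Of 11 smooth muscle and pericyte markers 1 rose and 2 fell, near the 12.3% and 12.6% of all tested genes. Their sums were 1639 to 1825 CPM and then 1280 to 1402 in wild type, against 1764 to 1777 and 1618 to 1754 in T497A. Abcc9 carried most of the wild-type fall, with means of 679 CPM after sham and 331 after TAC. The fall of this sum is therefore not read as a measure of these cells. The defining Rgs5 (-0.14 ± 0.08, adjusted p = 0.227) and Myh11 (-0.37 ± 0.44, adjusted p = 0.59) did not pass in wild type. Of 10 cardiomyocyte markers 8 fell in wild type, from sums of 73344 to 83095 CPM to sums of 51499 to 60073, against 66849 to 77832 and then 60872 to 64706 in T497A. Of 6 atrial markers 2 rose and 1 fell, with sums of 60.6 to 111 and then 545 to 1256 CPM, against 113 to 198 and then 126 to 318. Nppa, a natriuretic peptide gene that loaded ventricles also express, carried most of that sum, with wild-type means of 31.9 CPM after sham and 827 after TAC, while the defining Myl7 (-0.68) and Sln (-0.55) and also Myl4 (0.01) did not pass.

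Rarer cell types were at low levels, and their few calls stand beside the 25.0% of all tested genes called in wild type. Epicardial and mesothelial markers summed to 8.07 to 9.74 and then 11.4 to 12.2 CPM in wild type and to 9.94 to 11.7 and then 8.15 to 10.2 in T497A, with none called. Schwann cell markers summed to 12.6 to 19.9 and then 8.77 to 9.09 CPM, and to 12.0 to 19.7 and then 8.66 to 13.5 in T497A, with 2 of the 4 tested falling in wild type. Lymphocyte markers summed to 1.29 to 2.52 and then 2.98 to 3.42 CPM, and to 1.99 to 3.83 and then 3.57 to 4.78 in T497A, with none called. Markers of valve and cartilage-like interstitium summed to 5.02 to 9.85 and then 10.1 to 15.3 CPM, and to 5.46 to 11.0 and then 7.00 to 8.48 in T497A, with 2 rising and 1 falling of 6 tested. Adipocyte markers stayed at or below 3.43 CPM and skeletal muscle markers ran from 0.894 to 29.7 CPM over the 12 libraries; none of either list was called.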

How the data were processed

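The authors deposited a table of raw gene counts for 12 left-ventricle libraries, 3 in each of 4 groups, with groups taken from the labels. Per the submitters' processing notes, Trim Galore 0.6.4, STAR 2.7.3a, featureCounts of Subread 1.6.3, limma 3.50.3 and mm10 were used; their order, settings and strand handling are not stated there, so reads of overlapping genes may be shared out in unknown ways. The deposited counts were analysed here with edgeR 4.0.16 in R 4.3.3 (TMM scaling, filterByExpr with a minimum count of 10, robust quasi-likelihood fit of 4 group means, Benjamini-Hochberg adjustment over 15764 genes, threshold 0.05). The biological coefficient of variation was 17.2%. Replicates all differed beyond sampling noise, so none was counted as a duplicate. Positions and exon lengths came from GENCODE M21 (GRCm38), and promoter windows from RefSeq. Alternatives were DESeq2 1.42.0, limma 3.58.1 voom, other scaling and filters, and left-out libraries. Values in all 12 libraries are given for genes called for TAC in T497A or the interaction, for the 3 largest and 1 smallest change in each class, and for any negative change in wild type; of each partner list the 2 largest rises and falls are named. The members, lists and alternatives were chosen with earlier results of these data known. Marker lists covered fibroblasts, activated fibroblasts, endothelium, smooth muscle and pericytes, macrophages, epicardium, ventricular and atrial cardiomyocytes, adipocytes, Schwann cells, lymphocytes, skeletal muscle and valve.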

Additional observations from a re-analysis of the deposited data

Results flagged for a closer look

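For 7 matrix genes the response to TAC differed between the genotypes by the test of the difference itself, edgeR's interaction of genotype and surgery. The log2 difference, T497A minus wild type, was -2.05 for Mfap5, -1.79 for Pamr1, -1.31 for Mgp, -1.05 for Efemp2, -0.99 for Pcolce, -0.73 for Ecm1 and -0.58 for Sulf1. Over 18 alternatives Mgp and Pamr1 were called in all 18, Mfap5 in 14, Efemp2 and Pcolce in 9 each, and Ecm1 and Sulf1 in 7 each. In each of the 7 the wild-type TAC libraries all lay above the wild-type sham libraries and above the T497A TAC libraries. Of all tested genes, 21.5% had the first separation and 13.6% the second. The 7 were picked by a test on these same libraries, which favours such a separation, so it is not further evidence. Of the 7, Mgp and Sulf1 rose within T497A as well. With 3 libraries in each group, no test for a single deviating library was made.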

How the results depend on the processing

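No paired analysis was possible because all titles carry the same replicate number. The 28 members called for TAC in wild type were 28 to 30 under RLE scaling, no filter, DESeq2, limma-voom, the comparison's own groups alone and mitochondrial genes left out, and 27 to 30 when each library was left out; 25 were called under every alternative. The 3 called for TAC in T497A were 9 without the filter, 10 with DESeq2, 0 with limma-voom, 0 with the 6 T497A libraries alone and 0 to 6 with each library left out; none was called under every alternative. The 7 called for the interaction were 13 without the filter, 15 with DESeq2 and 2 to 12 with each library left out. The 18 called between genotypes after TAC were 11 to 21 with each library left out, and the 0 after sham stayed 0 throughout. An alternative chosen after seeing the data, leaving out both second sham libraries, gave 28, 1, 4, 21 and 0; the 1 was Bgn. The causes were not tested. No called change reversed its sign under the alternatives tried. Signs changed for changes that were not called, with these ranges over left-out libraries: in wild type Lama4 -0.0710 to 0.0851, Tnxb -0.20 to 0.0447, Lamb2 -0.0713 to 0.11, Lama2 -0.000871 to 0.17. In T497A the ranges were Mfap2 -0.39 to 0.36, Hspg2 -0.0626 to 0.17, Tnxb -0.0746 to 0.0736, Lamb2 -0.0522 to 0.0432, Dpt -0.22 to 0.0372, Fbn2 -0.13 to 0.58, Efemp2 -0.0551 to 0.22, Ogn -0.0513 to 0.0292, Nid2 -0.0698 to 0.37, Agrn -0.0146 to 0.16. For the interaction they were Lamb1 -0.15 to 0.11, Tnxb -0.0377 to 0.21, Smoc2 -0.13 to 0.14, Lamb2 -0.11 to 0.0722, Lama2 -0.0730 to 0.10, Nid2 -0.42 to 0.0230. Between genotypes after TAC they were Smoc2 -0.18 to 0.0807, Dpt -0.0471 to 0.0407, Emilin2 -0.41 to 0.19, Tnxb -0.0228 to 0.13. Without both second sham libraries, Lamb2 was -0.0715 in wild type, Lamb2 -0.0521 and Dpt 0.0373 in T497A, and Lamb1 0.0655, Lamb2 0.0194 and Smoc2 0.12 for the interaction. Counts behind the lowest members were small, from 22 to 158 for Fbn2 and from 29 to 105 for Mfap2 over the 12 libraries, and groups held 3 libraries each.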

Other observations

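Members that lie near one another in the genome did not always share a response to TAC in wild type, as a description with no test. On chromosome 13 (GRCm38) 4 matrix genes lie in this order on the plus strand: Ecm2 (49504810 to 49532789), Aspn (49544443 to 49567565), Omd (49582462 to 49592822) and Ogn (49608046 to 49624501). Ecm2 rose by 0.74, Aspn by 1.28 and Omd by 1.27 on the log2 scale, while Ogn, the last of the row, had -0.22 and did not pass the test. Omd had low levels, with wild-type means of 1.31 CPM after sham and 3.15 after TAC. On chromosome 10, Dcn (97479609 to 97518143) and Lum (97565128 to 97572703) rose by 0.64 and 0.94. On chromosome 1, Prelp (133910304 to 133921414, minus strand) and Fmod (134037254 to 134048277, plus strand) rose by 1.09 and 2.68.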
